A study of Homo sapiens with 2 samples.

Results

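The RNA interference machinery was examined as 10 genes chosen by name from the 58735 genes of the deposited count table. These were the argonautes AGO1, AGO2, AGO3 and AGO4, the ribonucleases DROSHA and DICER1, their double-stranded RNA-binding partners DGCR8, TARBP2 and PRKRA, and the export receptor XPO5. The rule used gene names and no measured value. All 10 were found in the table, and all 10 had a mean CPM (read counts scaled to library size) of at least 1, as did 13942 genes in all, called measured genes here. The library called siCYP4F11 came from NCI-H460 cells given an siRNA against CYP4F11 to knock it down. It was compared with a library of the same line without the knockdown, titled siControl. Beyond that title, its label says only that no siRNA against CYP4F11 was used. Both were collected 24 h after lipid transfection and carry the same batch label, and poly-A RNA was sequenced. NCI-H460 is a human large cell lung carcinoma line, named NCI-H469 in the series' design text. There was 1 library per group, so no difference has a replicate check, no test was possible, and every interval covers counting error only.

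A microRNA starts as a hairpin in a longer nuclear transcript. DROSHA and its partner DGCR8, together called the Microprocessor, cut the hairpin out, XPO5 carries it to the cytoplasm, and DICER1 trims it to a short duplex. The duplex is loaded into an argonaute protein, which uses the retained strand to find matching mRNAs and recruits proteins that shorten and decap them. A transfected siRNA enters at the argonaute step, where AGO2 can cut a fully matched target.

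The siRNA target was lower, with 972 counts of CYP4F11 in the siCYP4F11 library against 3180 in the siControl library, which gives -1.40 on the log2 scale for siCYP4F11 over siControl (-1.51 to -1.30, 95% counting interval). The libraries held 13002179 counts in siCYP4F11 and 16207785 in siControl. A floor of 3 counts corresponded to 0.230 CPM in siCYP4F11 and 0.186 CPM in siControl. The 4 epithelial markers summed to 2902 CPM in siCYP4F11 and 3483 CPM in siControl, nearly all from KRT8, KRT18 and KRT19, while EPCAM had 8 counts in siCYP4F11 and 6 in siControl. All 5 markers of KEAP1-mutant lung lines were measured, with summed levels of 6214 CPM in siCYP4F11 and 5787 CPM in siControl. The 4 leukocyte markers summed to 0 CPM in siCYP4F11 and 0.124 CPM in siControl, with PTPRC and CD3E at 0 in both. The 3 endothelial markers PECAM1, VWF and CDH5 were at 0 in both. The 4 fibroblast markers summed to 10.3 CPM in siCYP4F11 and 8.42 CPM in siControl, with 0 of them at 0 in both. The 4 alveolar and airway markers summed to 0.306 CPM in siCYP4F11 and 0.124 CPM in siControl, with SCGB1A1 and FOXJ1 at 0 in both.

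The DGCR8 mRNA is itself a substrate of the Microprocessor, since it carries hairpins that DROSHA and DGCR8 cut, so the sequences encoded in it are shown first. RefSeq places MIR3618 and MIR1306 within DGCR8 on the plus strand of chromosome 22 (GRCh38.p14). In GENCODE 29 the MIR3618 hairpin (22, 20085746 to 20085833) lies in an untranslated part of DGCR8 exon 2 in 3 transcripts. The MIR1306 hairpin (20086058 to 20086142) lies in coding sequence in 4 transcripts. Capitals mark the seed, bases 2 to 8 of the mature RNA, and the 3 seeds differ from each other.
hsa-miR-3618: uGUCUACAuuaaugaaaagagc
hsa-miR-1306-5p: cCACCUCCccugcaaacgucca
hsa-miR-1306-3p: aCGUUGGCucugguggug
Both hairpin entries had 0 counts in both libraries. Both lie inside DGCR8 exons, and how reads shared by overlapping genes were counted is not given. The 0 counts therefore do not tell whether reads fell on the hairpins.

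Both Microprocessor genes had log2 ratios below 0, but the counting interval excluded 0 for DROSHA alone. AGO4 was the other member below 0, with a value next to 0. With the GC correction AGO3 was below 0 as well, at -0.03. DROSHA (chromosome 5, 31400497 to 31532196, minus strand), the nuclear ribonuclease that cuts primary transcripts, had 748 counts (57.3 CPM) in siCYP4F11 against 1093 counts (67.7 CPM) in siControl. Its log2 ratio was -0.24 (-0.38 to -0.11), so its level was 84.6% of that in siControl (77.0% to 93.0%). In bulk RNA, less transcript per cell and fewer cells that hold it cannot be told apart. DROSHA was the only member whose counting interval lay wholly below 0, and it shares no exon bases or 50-base words with another gene. DGCR8 (chromosome 22, 20080232 to 20111877, plus strand), which holds the hairpin for DROSHA, had 295 counts (22.6 CPM) in siCYP4F11 against 382 counts (23.7 CPM) in siControl. Its log2 ratio was -0.07 (-0.29 to 0.16), an interval that spans 0. DROSHA made up 71.7% of the DROSHA and DGCR8 counts in siCYP4F11 (68.9% to 74.4%, exact Clopper-Pearson) and 74.1% in siControl (71.8% to 76.3%). The difference between the log2 ratios of DROSHA and DGCR8 was -0.17 (-0.44 to 0.09), so a shift of DROSHA relative to its partner was not detectable at this depth.

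XPO5 (chromosome 6, 43522330 to 43576075, minus strand), which carries precursor hairpins out of the nucleus, had 1046 counts (80.1 CPM) in siCYP4F11 against 1190 counts (73.7 CPM) in siControl. Its log2 ratio was 0.12 (-0.001 to 0.24), and the interval just included 0. It excluded 0 with the 3 other library-size scalings, where its lower end was 0.003 to 0.01, and with the GC correction, at 0.13 (0.01 to 0.25). The log2 ratio of XPO5 exceeded that of DROSHA, the step before it, by 0.36 (0.18 to 0.54). Log2 ratios of single genes with a mean CPM of 10 to 100 had an SD of 0.24. No background was computed for differences between genes. A stretch of 348 bases of XPO5 exons, 4.08% of the gene model, overlaps POLR1C on the other strand, which had 273 counts in siCYP4F11 and 317 in siControl. Of the other members, DROSHA and AGO4 overlap no annotated exon, and DGCR8 has the largest overlap, 526 bases with the antisense gene AC006547.2, which had 0 counts in both libraries. Reads of such partners cannot be told apart from those of the member, since the strand setting of the counting is unknown here.

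DICER1 and both of its partners were slightly higher in siCYP4F11. DICER1 (chromosome 14, 95086228 to 95158010, minus strand), the cytoplasmic ribonuclease, had 738 counts (56.5 CPM) in siCYP4F11 against 805 counts (49.9 CPM) in siControl, a log2 ratio of 0.18 (0.03 to 0.33). TARBP2 (chromosome 12, 53500921 to 53506431, plus strand), which helps DICER1 load argonautes, had 379 counts (29.03 CPM) in siCYP4F11 against 393 counts (24.3 CPM) in siControl. Its log2 ratio was 0.25 (0.05 to 0.46). PRKRA (chromosome 2, 178431414 to 178451512, minus strand), also called PACT and known as an activator of the kinase PKR, had 655 counts (50.2 CPM) in siCYP4F11 against 718 counts (44.5 CPM) in siControl. Its log2 ratio was 0.17 (0.02 to 0.33). The 3 counting intervals all excluded 0 without the GC correction, and no difference between the 3 genes was then detectable at this depth. TARBP2 exceeded DICER1 by 0.07 on the log2 scale (-0.18 to 0.33), PRKRA differed from DICER1 by -0.007 (-0.22 to 0.21), and TARBP2 exceeded PRKRA by 0.08 (-0.18 to 0.34). With the GC correction TARBP2 was at 0.37 (0.16 to 0.57), DICER1 at 0.07 (-0.08 to 0.22) and PRKRA at 0.04 (-0.11 to 0.20). The pairs were not compared with that correction, so a difference of TARBP2 from the others is not settled. TARBP2 took 36.7% of the counts of the 2 partners in siCYP4F11 (33.7% to 39.7%) and 35.4% in siControl (32.6% to 38.3%).

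**Figure D1:**
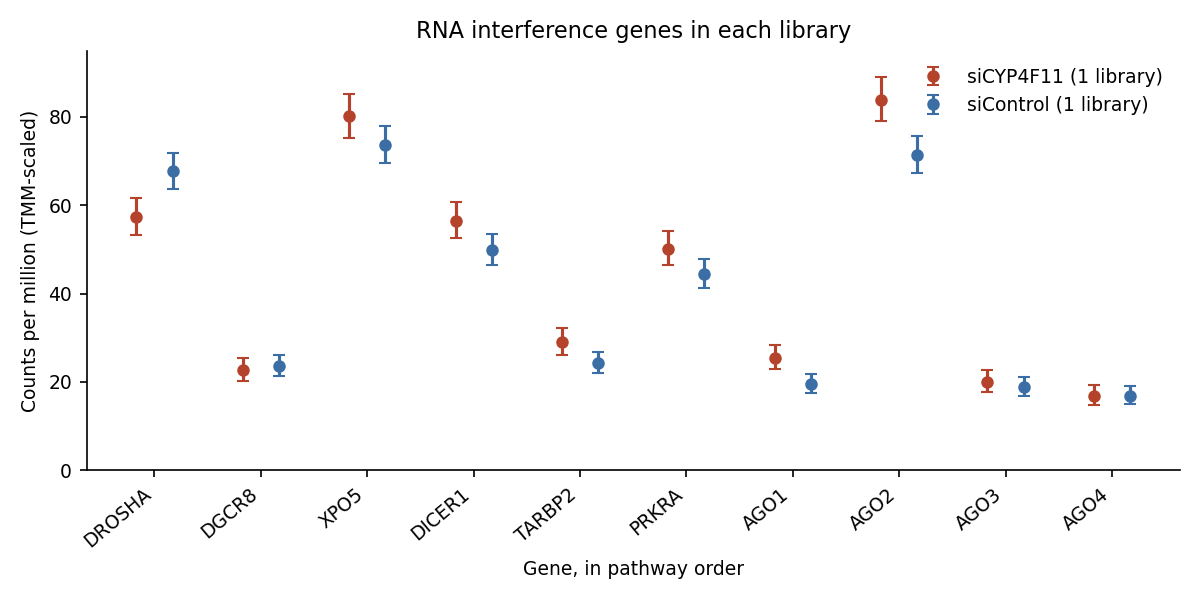
Level of each of the 10 genes in TMM-scaled CPM, with 1 point per library (siCYP4F11 left, siControl right) and bars for the exact 95% Poisson interval of its count. DROSHA had 57.3 CPM in siCYP4F11 and 67.7 CPM in siControl, while AGO2 had 84.0 CPM in siCYP4F11 and 71.5 CPM in siControl.

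Among the argonautes, AGO1 and AGO2 were higher in siCYP4F11, while AGO3 and AGO4 lay near 0. AGO1 had 333 counts (25.5 CPM) in siCYP4F11 against 315 counts (19.5 CPM) in siControl, a log2 ratio of 0.39 (0.16 to 0.61). Its level was 131% of that in siControl (112% to 153%), which made it the member furthest from 0. AGO2, the argonaute with efficient slicing activity, lies on chromosome 8 and had 1096 counts (84.0 CPM) in siCYP4F11 against 1154 counts (71.5 CPM) in siControl. Its log2 ratio was 0.23 (0.11 to 0.35). AGO3 had 262 counts (20.1 CPM) in siCYP4F11 against 306 counts (19.0 CPM) in siControl, a log2 ratio of 0.08 (-0.16 to 0.33). AGO4 had 220 counts (16.9 CPM) in siCYP4F11 against 273 counts (16.9 CPM) in siControl, a log2 ratio of -0.004 (-0.27 to 0.26). With other library-size scalings AGO4 lay between -0.0005 and 0.007, so it has no settled sign.

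AGO1, AGO3 and AGO4 stand in a row on the plus strand of chromosome 1, AGO4 from 35808172 to 35857890, AGO1 from 35869808 to 35930528 and AGO3 from 35930718 to 36072500. Only 189 bases separate AGO1 from AGO3, and 11917 separate AGO4 from AGO1. Their log2 ratios nevertheless spread from -0.004 to 0.39. AGO1 exceeded AGO4 by 0.39 on the log2 scale (0.04 to 0.74), where single genes with a mean CPM of 10 to 100 had an SD of 0.24. Without the GC correction, AGO1 against AGO4 was the only one of the 6 argonaute pairs whose counting interval excluded 0. AGO1 exceeded AGO3 by 0.30 (-0.03 to 0.64) and AGO2 by 0.15 (-0.10 to 0.41). In all, 11 pairs of members were compared, none with the GC correction, and XPO5 against DROSHA was the other one whose interval excluded 0. With that correction AGO1 was at 0.37 (0.14 to 0.60) and AGO3 at -0.03 (-0.28 to 0.21), so these pair counts hold only without it.

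Summed over the family, the argonautes had 1911 counts (146 CPM) in siCYP4F11 against 2048 counts (127 CPM) in siControl, a log2 ratio of 0.21 (0.12 to 0.30). DICER1 with its partners had 1772 counts (136 CPM) in siCYP4F11 against 1916 counts (119 CPM) in siControl, at 0.19 (0.10 to 0.29). The Microprocessor pair had 1043 counts (79.9 CPM) in siCYP4F11 against 1475 counts (91.4 CPM) in siControl, at -0.19 (-0.31 to -0.08). Without the GC correction, the Microprocessor sum was thus lower in siCYP4F11, and the sums of DICER1 with its partners and of the argonautes were higher. Single genes weigh heavily in these sums. In siCYP4F11, DROSHA held 71.7% of the Microprocessor counts and AGO2 held 57.4% of the argonaute counts. The intervals of DGCR8, AGO3 and AGO4 spanned 0, and no background was computed for sums. With the GC correction the median was 0.07 over DICER1 and its partners and 0.09 over the argonautes, and DGCR8 was at -0.004 (-0.23 to 0.22). The log2 ratios of single genes with a mean CPM of 10 to 100 had an SD of 0.24.

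The members were set against all other genes of the same 2 libraries. A gene was called higher or lower if its log2 ratio reached 0.32 or -0.32 and its counting interval lay wholly on that side of 0. AGO1 was the only member called higher, 1 of 10, where 6.92% of the measured genes were called higher. The number of members called lower was 0 of 10, where 8.62% of the measured genes were called lower. Past 2-fold, 0 of 10 members were called in either direction, where 0.703% of the measured genes were called higher and 1.26% lower. These shares of the members are near the background and are no result about them.

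The members had mean levels of 16.9 to 77.7 CPM, so genes with a mean CPM of 10 to 100 give the closest view. In these 7529 genes the log2 ratios had an SD of 0.24 and a median of 0.002, and the middle 90% lay between -0.39 and 0.38. In this range 7.74% of genes were called higher and 8.55% lower. A log2 ratio as high as that of AGO1, or higher, was found in 4.57% of them. For TARBP2 that share was 13.1%, for AGO2 15.4%, for DICER1 21.6% and for PRKRA 22.5%. A value as low as that of DROSHA, or lower, was found in 14.7%. Counting intervals excluded 0 for 6 of 10 members, AGO1, AGO2, DICER1, TARBP2, PRKRA and DROSHA, and for 41.6% of genes in this range. With the other library-size scalings XPO5 joined them, which made 7 of 10. With the GC correction XPO5 joined too, but the intervals of DICER1 and PRKRA then included 0. The log2 ratio was above 0 for 7 of 10 members, or 8 with total-count and DESeq2 scaling through AGO4, and for 50.3% of the genes in this range. With the GC correction AGO3 was below 0 as well. The shares of 41.6% and 50.3% hold for TMM scaling without that correction. The median over the 10 members was 0.15, beside -0.006 over all measured genes, and with a correction for transcript GC content it was 0.06.

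**Figure D2:**
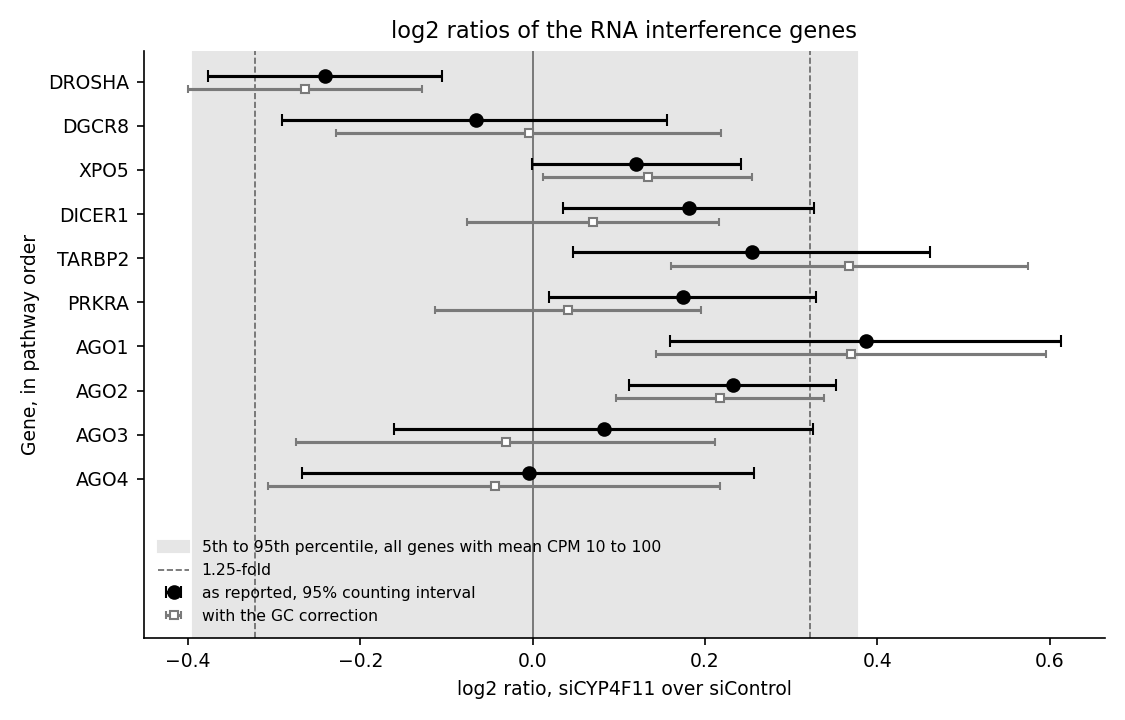
log2 ratio of siCYP4F11 over siControl for each member, with 95% counting intervals as reported (black) and after the GC correction (grey squares). AGO1, at 0.39, was the only member whose uncorrected value lay past the dashed threshold line at 0.32, close to the upper edge of the shaded range that holds the middle 90% of genes with a mean CPM of 10 to 100.

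Transcript GC content moved with the ratios across genes. In genes with a mean CPM of 10 to 100, those with the most GC-poor transcripts (30.2% to 38.015%) had a median log2 ratio of 0.17, while those with the most GC-rich ones (61.1% to 74.5%) had -0.14. DICER1, PRKRA and AGO3 have GC-poor transcripts, at 39.2%, 37.6% and 38.9%, while TARBP2 has 60.8%. When the log2 ratios were corrected for this trend, PRKRA was at 0.04 (-0.11 to 0.20) and DICER1 at 0.07 (-0.08 to 0.22), so both intervals spanned 0. AGO3 changed sign, to -0.03 (-0.28 to 0.21). The median over DICER1 and its partners was 0.07 with the correction, against 0.18 without it, and that over the argonautes was 0.09, against 0.16. TARBP2 was at 0.37 (0.16 to 0.57) after the correction and so was past the threshold of 0.32. AGO1 at 0.37 (0.14 to 0.60), AGO2 at 0.22 (0.10 to 0.34) and DROSHA at -0.26 (-0.40 to -0.13) kept intervals that excluded 0, and their GC content of 45.8% to 46.6% lies near the median of 47.9% over measured genes.

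**Figure D3:**
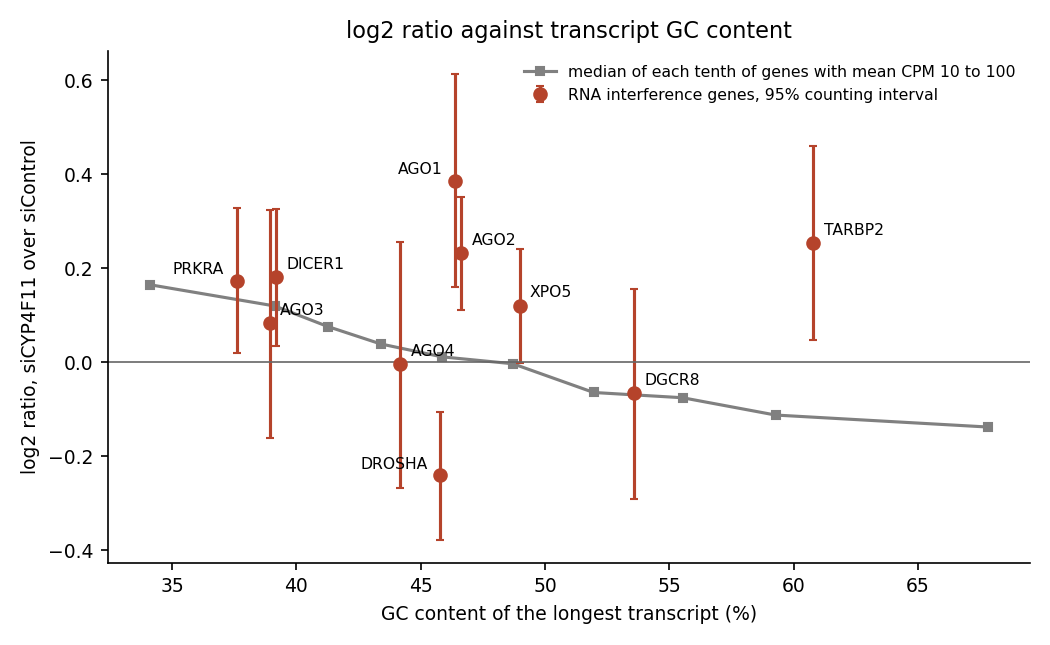
log2 ratio of siCYP4F11 over siControl against GC content of the longest transcript, for the 10 members (red, 95% counting intervals) and for 10 equal bins of all genes with a mean CPM of 10 to 100 (grey medians). PRKRA, DICER1, AGO3, AGO4 and DGCR8 lie close to the grey line, whereas TARBP2, AGO1, AGO2 and XPO5 lie above it and DROSHA below it.

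Levels of different genes were set side by side per length, as TPM (counts divided by the gene model's length and scaled to the same sum in each library). PRKRA was the most abundant member, with 40.4 TPM in siCYP4F11 and 36.0 TPM in siControl. In siCYP4F11 it was followed by XPO5 at 29.9 TPM, DROSHA at 23.4 TPM, TARBP2 at 22.5 TPM, AGO2 at 16.8 TPM and DICER1 at 14.6 TPM. Below these came DGCR8 at 9.81 TPM, AGO4 at 7.36 TPM, AGO1 at 5.83 TPM and AGO3 at 3.01 TPM. In siControl the order was the same except that DROSHA, at 27.7 TPM, stood just before XPO5 at 27.6 TPM. Poisson intervals overlapped between DROSHA and TARBP2 and between AGO4 and AGO1 in siCYP4F11, and between DROSHA and XPO5 and between AGO2 and DICER1 in siControl, so these neighbours are not ordered beyond counting error. DROSHA lay apart from TARBP2 in siControl, at 27.7 TPM against 19.0 TPM. The median over measured genes was 15.3 TPM in siCYP4F11 and 15.6 TPM in siControl.

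AGO2 held the largest part of the argonaute level in both libraries. Per length, AGO2 took 51.0% in siCYP4F11 and 49.4% in siControl, and AGO4 took 22.3% in siCYP4F11 and 25.5% in siControl. AGO1 took 17.7% in siCYP4F11 and 15.4% in siControl, and AGO3 took 9.11% in siCYP4F11 and 9.80% in siControl. In counts, which need no length, AGO1 made up 17.4% of the family in siCYP4F11 (15.7% to 19.2%) and 15.4% in siControl (13.84% to 17.02%), and the intervals overlapped. AGO4 ranked second per length but last by counts, with 11.5% in siCYP4F11 and 13.3% in siControl, because its gene model is 7267 bases long and that of AGO3 is 21157.

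**Figure D4:**
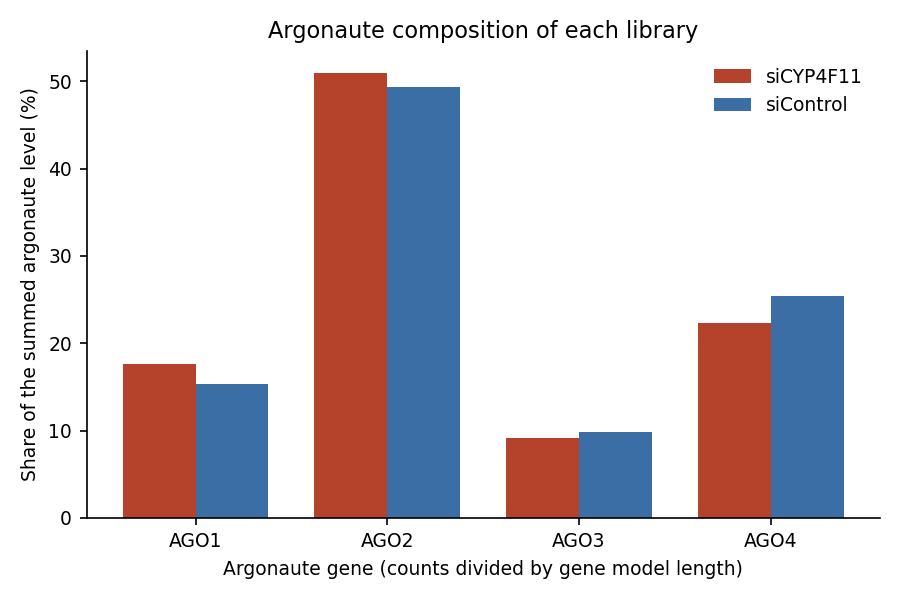
Share of the summed argonaute level, in counts divided by gene model length, held by AGO1 to AGO4 in the siCYP4F11 (red) and siControl (blue) library, with 1 library per bar and so no error bar. AGO2 held 51.0% in siCYP4F11 and 49.4% in siControl, and the order of the 4 genes was the same in both.

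Of the further 129 pathway genes in 9 lists, 115 were measured, 6 were called higher and 6 lower, and their median log2 ratio was -0.01. Over all measured genes 6.92% were called higher and 8.62% lower. Those shares are the background for each list below, and no list was tested against them. Among 12 Microprocessor cofactors, 2 were lower. SAFB2, which aids the cutting of poor hairpins, had 577 counts in siCYP4F11 against 976 in siControl, at -0.45 (-0.60 to -0.30). SRRT, which links the cap-binding complex to primary transcripts, had 1391 counts in siCYP4F11 against 2179 in siControl, at -0.34 (-0.44 to -0.24). The helicase DDX17 was at -0.18, and 9 of the 12 were below 0, as both core genes were, with a median of -0.04. This sign count was not tested, and 50.3% of all genes with a mean CPM of 10 to 100 lay above 0. With the GC correction SRRT was at -0.25 (-0.35 to -0.15), short of the threshold. For SAFB2, 10.1% of its 50-base words also occur elsewhere among annotated transcripts, so its count is less certain. The 4 nuclear transport genes were not called but all lay above 0. RAN, the GTPase that XPO5 binds with its cargo, had 14058 counts in siCYP4F11 against 14965 in siControl, at 0.22 (0.18 to 0.25), and IPO8, an import receptor for argonautes, was at 0.20 (0.06 to 0.34). The export receptor XPO1 was at 0.20 and the nuclear pore gene NUP153 at 0.17. With the GC correction IPO8 was at 0.13 (-0.01 to 0.27), an interval that includes 0, XPO1 at 0.07 (0.01 to 0.13) and RAN at 0.16 (0.13 to 0.20), and the list median was 0.13, against 0.20 without it.

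In the list of argonaute loading chaperones, 8 of 13 genes lay below 0, with a median of -0.15, or -0.10 with the GC correction. This sign count was not tested, and 50.3% of all genes with a mean CPM of 10 to 100 lay above 0. HSP90AA1, an HSP90 chaperone that opens argonautes for loading, had 21367 counts in siCYP4F11 against 34177 in siControl, at -0.37 (-0.40 to -0.35), and was the 1 gene of the list called lower. It shares 14.0% of its 50-base words with other genes. HSPA8 was at -0.24, AHSA1 at -0.21 and PTGES3, the p23 cochaperone, at 0.23. Of 11 measured argonaute partners, 0 were called in either direction, and the median was -0.09. SND1, a nuclease found with argonautes, was at -0.31 (-0.38 to -0.25) and ZSWIM8, the receptor of a ligase that degrades argonautes, at -0.25 (-0.45 to -0.05). ANKRD52 was at -0.17 and PPP6C at 0.30, both parts of a phosphatase that acts on AGO2. With the GC correction ZSWIM8 was at -0.13 (-0.34 to 0.06), an interval that includes 0, ANKRD52 at -0.09 (-0.18 to -0.001), PPP6C at 0.18 (0.06 to 0.30) and SND1 at -0.24 (-0.31 to -0.18). TRIM71 had 0 counts in both libraries. The scaffold genes TNRC6A, TNRC6B and TNRC6C, named after their values were seen, were at -0.09 (-0.21 to 0.02), -0.17 (-0.39 to 0.04) and 0.07 (-0.17 to 0.31). ZSWIM8 and TNRC6C share 14.6% and 12.3% of their 50-base words with other genes.

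Deadenylation and decapping genes act after target recognition. Of these 22 genes, 2 were called higher and 3 lower, beside 6.92% and 8.62% of all measured genes. Their median was 0.02. DCP2, the decapping enzyme, had 934 counts (71.5 CPM) in siCYP4F11 against 787 counts (48.8 CPM) in siControl, at 0.55 (0.42 to 0.69). Its cofactors EDC4 and EDC3 were lower. EDC4, the scaffold of the decapping complex, had 919 counts in siCYP4F11 against 1538 in siControl, at -0.44 (-0.56 to -0.32), and the enhancer of decapping EDC3 had 419 counts in siCYP4F11 against 711 in siControl, at -0.46 (-0.63 to -0.28). EIF4ENIF1, a translational repressor that joins decapping factors to the cap-binding protein, was at -0.35 (-0.62 to -0.08). EDC3 shares 10.9% and EDC4 16.2% of their 50-base words with other genes. CNOT6L, a deadenylase named after its value was seen, was the other gene called higher, at 0.33 (0.16 to 0.51). With the GC correction CNOT6L was at 0.18 (0.005 to 0.36) and EIF4ENIF1 at -0.30 (-0.58 to -0.04), both short of the threshold, while DCP2 was at 0.42 (0.28 to 0.55), EDC4 at -0.33 (-0.45 to -0.21) and EDC3 at -0.40 (-0.57 to -0.22).

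Small RNA tailing and decay genes included 0 called of 11 measured, with a median of 0.001, and all 11 counting intervals included 0. LIN28A, a blocker of let-7 maturation, had 1 count in siCYP4F11 and 0 in siControl, and LIN28B had 0 in both. Of 15 other double-stranded RNA binders and sensors, TLR3, an endosomal receptor for such RNA, was past 2-fold, with 47 counts in siCYP4F11 against 27 in siControl, at 1.09 (0.39 to 1.85), and at 0.96 (0.26 to 1.71) with the GC correction. The list median was 0.02, with 8 genes above 0 and 7 below. Of its members named after their values were seen, EIF2AK2, the kinase PKR that PRKRA activates, was at 0.14 (0.02 to 0.25), and at 0.02 (-0.09 to 0.14) with the GC correction. Others named so were lower. ADARB1 was at -0.26 (-0.39 to -0.12), ZFR at -0.22 (-0.31 to -0.14), DHX9 at -0.22 (-0.29 to -0.15) and ADAR at -0.12 (-0.17 to -0.07). Their intervals excluded 0 with the GC correction too. PIWI genes, which act on germline small RNAs, had few or no counts. PIWIL1 and PIWIL3 had 0 counts in both libraries, PIWIL2 had 2 in siCYP4F11 and 0 in siControl, and PIWIL4 had 3 in siCYP4F11 and 5 in siControl. HENMT1, the methyltransferase of their small RNAs, had 37 counts in siCYP4F11 against 34 in siControl, at 0.43 (-0.28 to 1.14).

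**Figure D5:**
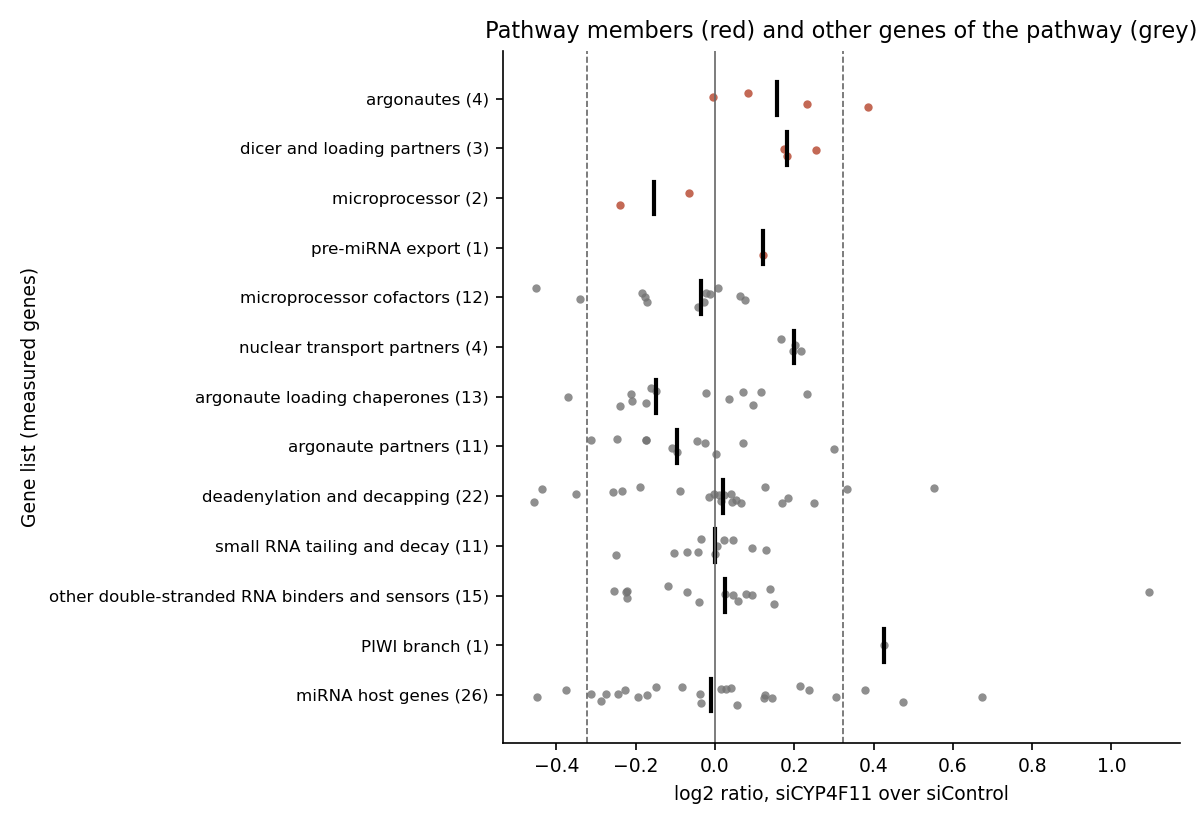
log2 ratio of siCYP4F11 over siControl for each measured gene of the 4 member groups (red) and the 9 lists of further pathway genes (grey), with the median of each as a black bar and the thresholds of 0.32 and -0.32 as dashed lines. Values spread on both sides of 0 in most lists, and TLR3, at 1.09, is the point furthest to the right.

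Mature microRNAs were not measured, since poly-A libraries hold the transcripts of their host genes and not the short products. The 1879 genes annotated as microRNA precursors took 722 counts in siCYP4F11 and 874 in siControl in all. Of 33 host genes, 26 were measured, 3 were called higher and 0 lower, beside 6.92% and 8.62% of all measured genes. The median of the measured hosts was -0.01. MIR17HG, the host of the miR-17 to miR-92a cluster, had 90 counts (6.89 CPM) in siCYP4F11 against 80 counts (4.96 CPM) in siControl, at 0.48 (0.03 to 0.93). DLEU2, the host of miR-15a and miR-16, had 84 counts in siCYP4F11 against 65 in siControl, at 0.67 (0.19 to 1.17). PANK1, a pantothenate kinase gene that hosts miR-107, had 162 counts in siCYP4F11 against 154 in siControl, at 0.38 (0.05 to 0.71). MIR29B2CHG, the host of miR-29b and miR-29c, had 169 counts in siCYP4F11 against 260 in siControl, at -0.31 (-0.60 to -0.03). DLEU2 and PANK1 each share more than 10% of their 50-base words with other genes, and the counts of all 4 hosts are low. With the GC correction MIR17HG was at 0.34 (-0.11 to 0.80), an interval that includes 0.

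The mature microRNAs encoded in these 4 host genes are shown with the seed in capitals, since the seed sets which mRNAs an argonaute complex can recognise (RefSeq, GRCh38.p14). In the MIR17HG cluster on chromosome 13, miR-17-5p and miR-20a-5p share a seed, as do miR-19a-3p and miR-19b-3p.
hsa-miR-17-5p: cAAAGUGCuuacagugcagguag
hsa-miR-20a-5p: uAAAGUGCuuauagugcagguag
hsa-miR-18a-5p: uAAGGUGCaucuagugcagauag
hsa-miR-19a-3p: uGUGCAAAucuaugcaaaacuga
hsa-miR-19b-3p: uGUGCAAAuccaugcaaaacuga
hsa-miR-92a-3p: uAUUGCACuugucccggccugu
The DLEU2 products miR-15a-5p and miR-16-5p, from chromosome 13 as well, share a seed, and the seed of miR-107 from PANK1 on chromosome 10 begins with the last 6 letters of theirs.
hsa-miR-15a-5p: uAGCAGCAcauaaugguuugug
hsa-miR-16-5p: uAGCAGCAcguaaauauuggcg
hsa-miR-107: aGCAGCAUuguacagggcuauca
The MIR29B2CHG products on chromosome 1 share a seed as well.
hsa-miR-29b-3p: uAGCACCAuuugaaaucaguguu
hsa-miR-29c-3p: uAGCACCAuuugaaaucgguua
The hairpin entries of these 11 microRNAs had 0 counts in both libraries.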

How the data were processed

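The authors deposited raw read counts per gene for both libraries, beside gene model lengths (bases) that match the union of exons in GENCODE 29 for nearly all genes. Per the submitters' processing notes, GRCh38, featureCounts 2.0.6, HISAT2 2.2.1, edgeR 4.0.16 and fastp were used, with no parameters. Per the labels' protocols the libraries were strand-specific, but how strand was treated in counting is not given, so overlapping genes may hold each other's reads. Effective library sizes were computed here by TMM (edgeR 4.0.16, R 4.3.3). Log2 ratios set siCYP4F11 over siControl, with 0.5 added to both counts, and their 95% intervals come from the exact Clopper-Pearson bounds on the part of the pooled count found in siCYP4F11. With 1 library per group no test was run. TPM values were computed from the counts and deposited lengths. Alternatives were other library sizes (total, upper-quartile, DESeq2 1.42.0), 2 added to each count, other filters and thresholds, other lengths, and a lowess correction on transcript GC content (span 0.3). Shared reads were gauged by the share of a gene's 50-base words found in other genes. The members and lists were chosen with earlier results of these data known. All members were named. Of each list, genes past 2-fold were named, otherwise up to 4 with the largest log2 ratios in size whose interval excluded 0, of which 1 is not reported here. The calculation was tested on simulated counts. Python 3.11.15, numpy 2.4.6, scipy 1.17.1, pandas 2.3.3, statsmodels 0.14.6 and matplotlib 3.10.9 were used.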

Additional observations from a re-analysis of the deposited data

How the results depend on the processing

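The log2 ratios of the 10 members stayed inside their counting intervals under all 5 alternatives run, other library sizes, a pseudocount of 2 and the GC correction. AGO3 and AGO4, neither of them called, changed sign. The number of members called higher was 1 as reported, 2 with the GC correction, which added TARBP2, and 0 at 1.5-fold, a stricter rule. The share of all measured genes called is not given under either alternative, so these counts are no result about the members. The median over members was 0.15 as reported, 0.06 with the GC correction and -0.12 over AGO4 and DROSHA, the 2 members whose exons touch no other gene, so fewer genes set that last value. Leaving out members whose exons overlap other genes over more than 5% of their bases, an alternative chosen after seeing the data, gave 0.15 over 8 members. By raw counts the argonaute shares were 57.4% for AGO2, 13.7% for AGO3 and 11.5% for AGO4 in siCYP4F11, and 56.3%, 14.9% and 13.3% in siControl, since raw counts are not divided by length. Of 20 length-scaled levels, 17 moved beyond their counting interval with the longest coding transcript as the length. DROSHA then stood behind TARBP2 in both libraries. TARBP2 also stood before XPO5 in siCYP4F11, at 34.1 TPM against 32.8 TPM. In siControl, XPO5 at 30.2 TPM stood before DROSHA at 28.1 TPM. DGCR8 at 11.5 TPM there stood before AGO2 at 10.8 TPM and DICER1 at 10.6 TPM. No paired analysis was possible because each group has 1 library. Depth limits genes such as TLR3, with 47 counts in siCYP4F11 and 27 in siControl.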
